A study of Mus musculus with 18 samples.

Results

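The machinery of H3K9 and DNA methylation is described here through 10 genes of 21900 protein-coding genes: Ehmt1, Ehmt2, Wiz, Kdm3b, Cdyl, Cbx5, Atf7ip, Dnmt1, Dnmt3a and Uhrf1. A peak belonged to a gene when it overlapped the gene's RefSeq span on mouse build mm10 (GRCm38.p6) or the 1000 bp on either side of it. By this rule 44 peaks in 10 libraries belonged to the 10 genes, and all 10 genes held at least 1, against 43.9% of all protein-coding genes. The 10 genes were chosen with earlier results of these data known, so this count is a description. The study measured chromatin accessibility by ATAC-seq, in which a transposase cuts and tags open DNA, in sorted lung epithelial cells of adult mice. Treated mice were given G9ai, an inhibitor of the histone methyltransferase G9a, and control mice were given Vehicle. All mice were of strain c57/bl6 and 6 to 12 weeks old, with 3 mice per arm, and no genetic alteration is named. The compound, its dose and the length of treatment are not named in the labels. Cells lacking CD31 and CD45 and bearing Epcam and Sca-1 were split by CD24 into Cd24- (CD24neg), Cd24lo (CD24low) and Cd24hi (CD24high) cells, with 10000 cells per library.

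Methylation of lysine 9 on histone H3 marks silent chromatin. G9a, encoded by Ehmt2, and its partner GLP, encoded by Ehmt1, place mono- and dimethyl groups there; demethylases remove them, and chromodomain proteins such as HP1 alpha, encoded by Cbx5, bind the methylated tail. The mark and DNA methylation are linked: Dnmt3a places methyl groups on cytosine of the CG dinucleotide, Dnmt1 copies them after replication, and Uhrf1 recruits Dnmt1 and also binds methylated H3K9.

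Peaks reached the promoter of 4 of the 10 genes, and these promoters are shown because they are the places where a listed peak lay on or against an annotated start site. Sequences are those of RefSeq on GRCm38.p6, 250 bases before to 50 bases after the start site, 5′ to 3′ on the strand of the gene. Cbx5 is at chr15:103239803-103240102 on the minus strand, Wiz at chr17:32389357-32389656 on the minus strand, Dnmt1 at chr9:20952574-20952873 on the minus strand and Uhrf1 at chr17:56303087-56303386 on the plus strand. Capitals mark the bases under a listed peak in both libraries of 1 group: CD24high G9ai for Cbx5, CD24neg G9ai for Wiz, CD24low vehicle for Dnmt1 and CD24neg G9ai for Uhrf1.
Cbx5: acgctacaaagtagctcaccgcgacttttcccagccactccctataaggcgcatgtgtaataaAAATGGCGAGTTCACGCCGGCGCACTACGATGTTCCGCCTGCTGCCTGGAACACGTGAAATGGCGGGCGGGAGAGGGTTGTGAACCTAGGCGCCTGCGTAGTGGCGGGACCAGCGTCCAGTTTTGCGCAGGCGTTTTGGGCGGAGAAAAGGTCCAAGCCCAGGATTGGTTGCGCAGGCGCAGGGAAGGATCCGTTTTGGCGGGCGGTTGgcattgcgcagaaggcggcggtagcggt
Wiz: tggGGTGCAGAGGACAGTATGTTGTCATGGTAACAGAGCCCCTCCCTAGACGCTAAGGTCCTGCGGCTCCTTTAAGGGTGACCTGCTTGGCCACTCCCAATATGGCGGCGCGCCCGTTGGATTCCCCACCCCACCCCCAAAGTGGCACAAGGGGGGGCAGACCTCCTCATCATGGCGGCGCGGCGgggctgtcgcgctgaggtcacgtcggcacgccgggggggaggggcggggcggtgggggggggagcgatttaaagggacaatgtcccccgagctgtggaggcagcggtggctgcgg
Dnmt1: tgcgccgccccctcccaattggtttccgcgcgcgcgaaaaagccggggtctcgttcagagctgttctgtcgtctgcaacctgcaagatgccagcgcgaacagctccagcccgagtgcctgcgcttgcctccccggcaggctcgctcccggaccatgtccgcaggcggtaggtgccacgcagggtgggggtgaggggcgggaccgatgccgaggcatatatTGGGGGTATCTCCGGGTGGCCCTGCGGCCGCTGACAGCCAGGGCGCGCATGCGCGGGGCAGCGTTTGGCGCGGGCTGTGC
Uhrf1: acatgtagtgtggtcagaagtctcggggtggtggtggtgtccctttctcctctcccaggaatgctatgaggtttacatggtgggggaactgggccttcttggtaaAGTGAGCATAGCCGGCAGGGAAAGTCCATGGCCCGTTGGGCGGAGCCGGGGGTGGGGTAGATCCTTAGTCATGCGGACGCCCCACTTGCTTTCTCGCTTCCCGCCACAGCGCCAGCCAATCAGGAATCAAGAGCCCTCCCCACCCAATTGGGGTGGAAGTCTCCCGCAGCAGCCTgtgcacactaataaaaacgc

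Of the 10 genes, 9 have a promoter in the RefSeq table used. Kdm3b was not among them.

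The design had 18 samples in 6 groups, of which 10 libraries had a list to work with. These were replicates 2 and 3 of G9ai in every population, replicates 2 and 3 of vehicle in CD24low, and replicate 3 of vehicle in both CD24neg and CD24high. The remaining 8 samples were not analysed here. CD24neg and CD24high therefore had 1 vehicle library each, with no replicate check on that side. The lists held 2552 to 12985 peaks, and the depth of the libraries is unknown. Lists of the same group shared 97.02% to 98.97% of their merged regions. A peak in both libraries of a group is therefore only a weak replicate check. Opposite arms of the same population shared only 0.101% to 0.650%, so each list holds peaks particular to its arm. A place open in both arms is then in neither list, and a gene with no listed peak may be open in both or closed in both. Because of how the lists were made, a test between arms on them would be circular, and counts and positions are given as descriptions. Among marker genes, 3 of 3 club, 3 of 3 multiciliated and 3 of 3 alveolar type 2 genes held a region. The counts were 2 of 3 for alveolar type 1 and 1 of 2 for basal genes. For endothelial and for leukocyte genes they were 2 of 3 each. Over all protein-coding genes the share was 43.7%. Of the sort markers, Epcam, Ly6a (Sca-1) and Cd24a held no region, while Pecam1 (CD31), against which cells were sorted, held 6 and Ptprc (CD45), likewise, held 1. Lists of this kind do not show whether the sorted cells were pure, and the part of other cell types in the results was not tested.

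A region was called G9ai-only when every G9ai library of a population listed a peak there and no vehicle library did, and vehicle-only in the opposite case. All 44 peaks of the 10 genes fell in such regions, 28 in number. Every one of the 10 genes held a region in at least 1 population, against 43.7% of all protein-coding genes. The 10 genes were chosen with earlier results of these data known. This count and those below are therefore descriptions, and shares of all genes stand beside them for scale only. Uhrf1 and Wiz held G9ai-only regions alone, as did 8.36% of all genes. Ehmt1, Ehmt2, Kdm3b and Cdyl held vehicle-only regions alone, as did 18.3% of all genes. Ehmt1 did so in CD24neg, from 1 vehicle library, and Ehmt2 in CD24low, so no population had both. Dnmt1, Dnmt3a, Atf7ip and Cbx5 held regions of both arms in different populations or at different places, which was so for 17.1% of all genes. The 10 genes are long, with a median span of 57523 bp against 17146 bp over all genes, and a longer window can hold more regions.

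**Figure D1:**
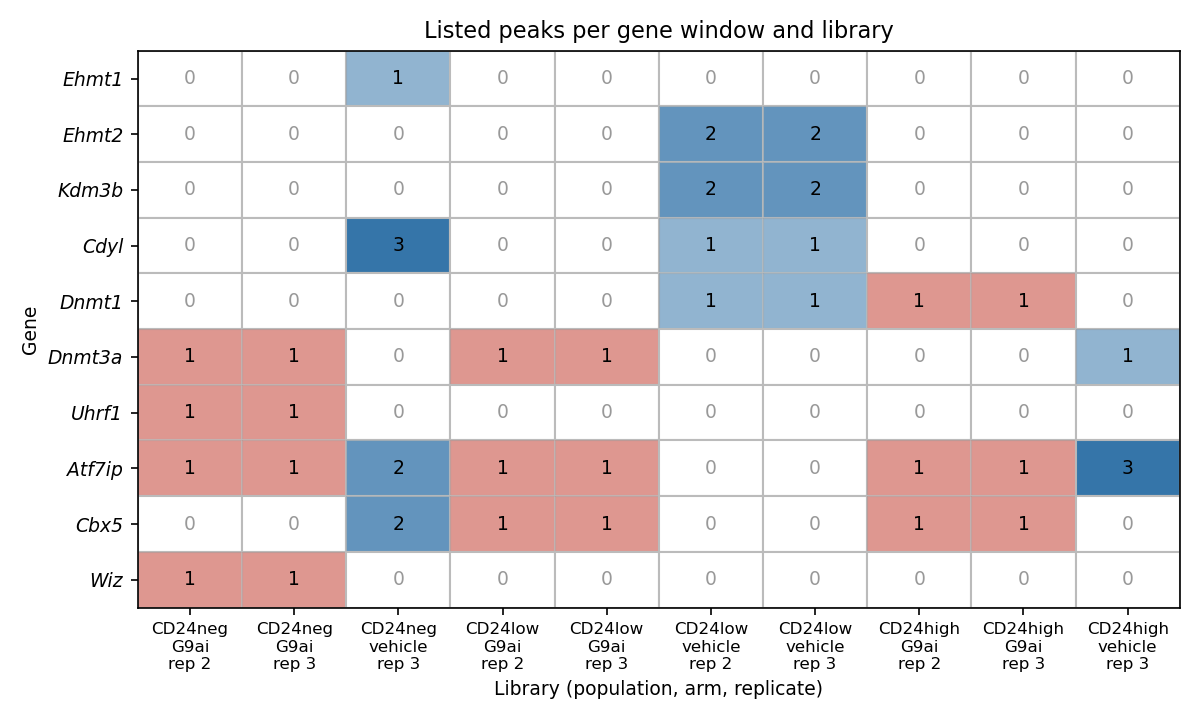
Number of listed peaks in the window of each gene (down) in each of the 10 libraries (across), with red for G9ai and blue for vehicle libraries and darker shades for more peaks. Uhrf1 and Wiz had 1 peak in each CD24neg G9ai library and 0 in the others, while Ehmt2 and Kdm3b had 0 in the G9ai libraries and 2 in each CD24low vehicle library.

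Ehmt2 encodes G9a itself, the enzyme that the drug blocks. Its span is chr17:34898463-34914073 on the plus strand. Its window held 0 peaks in both CD24low G9ai libraries, against 2 peaks in both CD24low vehicle libraries, and 0 peaks in the CD24neg and CD24high libraries of either arm. The difference was -2 peaks per library. That the arms do not overlap follows from how the lists were made, and a vehicle-only region in CD24low was held by 7.43% of all genes. Listed peaks in the 2 CD24low vehicle libraries and in no others were found for 294 genes, Ehmt2 among them.

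The first Ehmt2 peak lay inside the gene, 1122 bp after the second listed start site at position 34898970 in CD24low vehicle replicate 3. It covered chr17:34900054-34900129 in CD24low vehicle replicate 2, with a score of 41, and chr17:34900048-34900137 in replicate 3, with a score of 58. The score is the authors' own peak score, on a scale that the labels do not state. It is used only as a rank within its list, where 100% is the highest-scoring peak, and this peak ranked at 1.80% and 24.8%. The second peak lay near the other end of the gene, at chr17:34912191-34912316 in replicate 2 and chr17:34912196-34912314 in replicate 3. Its scores of 103 and 108 ranked at 85.8% and 80.9%. The promoter-near peak was thus among the weakest of its list in replicate 2, and the peak in the distal part was in the upper 50% of both lists. Exons and introns were not assigned, since the gene table used gives spans and start sites.

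Ehmt1 encodes GLP, which forms a dimer with G9a. Its span is chr2:24790769-24919643 on the minus strand. Both CD24neg G9ai libraries listed 0 peaks, and CD24neg vehicle replicate 3 listed 1, at chr2:24869674-24869826 inside the gene. The peak lay 49859 bp after the start site and its score of 126 ranked at 75.8%. The 7 libraries of the other populations listed 0 peaks. With 1 vehicle library in CD24neg, this difference has no replicate check.

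Wiz encodes a zinc finger protein that binds the dimer of G9a and GLP and helps to hold it on chromatin. It lies at chr17:32354047-32389501 on the minus strand. The CD24neg G9ai libraries each listed 1 peak, and CD24neg vehicle replicate 3 listed 0. The peak covered chr17:32389472-32389653 in G9ai replicate 2 and chr17:32389465-32389657 in G9ai replicate 3. It lay across the 5′ end of the span, with its near edge at -66 and -59 bp from the start site at position 32389406. Scores of 59 and 88 ranked at 21.4% and 53.0%, so the peak was in the lower part of 1 list and near the middle of the other. Both CD24low and CD24high listed none in either arm, and Wiz was the only one of the 3 genes of this enzyme complex with a G9ai-only region in any of the 3 populations.

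**Figure D2:**
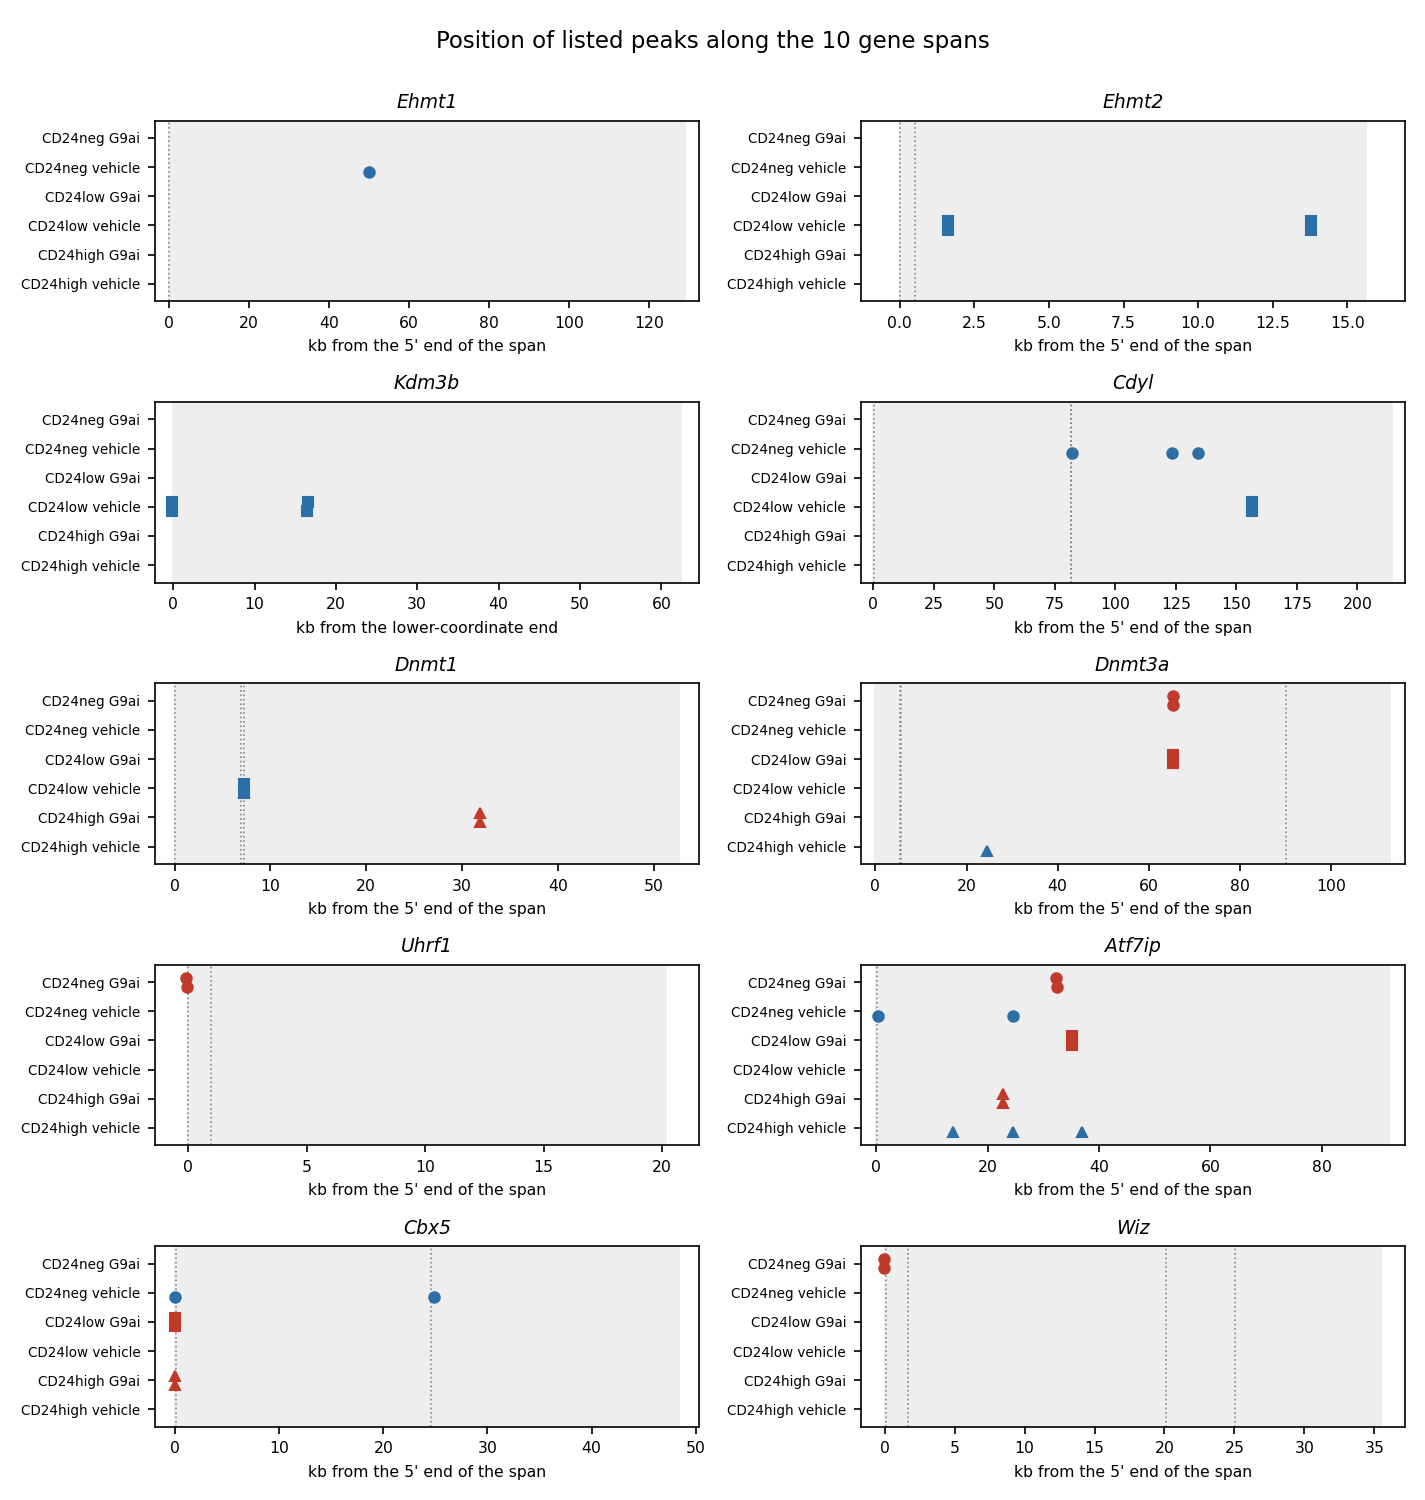
Position of each listed peak along each gene, in kb from the 5′ end of the span (for Kdm3b from the end with the lower coordinate), with 1 line per population and arm, red for G9ai and blue for vehicle. Grey marks the gene span, dotted lines mark RefSeq start sites, and each symbol is a peak of 1 library. Peaks of Uhrf1, Wiz and most of those of Cbx5 sit at 0, while those of Ehmt1, Dnmt3a and most of those of Atf7ip sit inside the gene.

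Kdm3b encodes a demethylase that removes methyl groups from H3K9. Its span is chr18:34777008-34839370. Both CD24low G9ai libraries listed 0 peaks, both CD24low vehicle libraries listed 2, and no CD24neg or CD24high library listed any. The first peak covered chr18:34776840-34776988 in vehicle replicate 2 and chr18:34776871-34776980 in vehicle replicate 3. It lay just outside the end with the lower coordinate, 20 and 28 bp from it. Its scores of 137 and 158 ranked at 96.5% and 96.3%, which were among the highest ranks of any peak of the 10 genes. The second peak lay inside the gene, at chr18:34793491-34793610 in replicate 2 and chr18:34793436-34793578 in replicate 3. Its scores of 53 and 77 ranked at 22.4% and 53.4%. Kdm3b and Ehmt2 had the same pattern over the 10 libraries, and the strand of Kdm3b is not given in the tables used, so no distance to a start site is stated.

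Cdyl encodes a chromodomain protein that binds methylated H3K9 and associates with G9a. It is the longest of the 10 genes, at chr13:35659818-35874064 on the plus strand. The 6 G9ai libraries listed 0 peaks, while CD24neg vehicle replicate 3 listed 3 and each CD24low vehicle library listed 1. In CD24neg vehicle the peaks were at chr13:35741656-35741787, chr13:35783020-35783171 and chr13:35793683-35793806. Their scores of 76, 109 and 67 ranked at 35.4%, 65.8% and 23.0%. The first of them lay 260 bp after an internal start site at position 35741462, and the other 2 lay further inside. In CD24low vehicle the peak covered chr13:35816085-35816201 in replicate 2 and chr13:35816084-35816156 in replicate 3. Its scores of 79 and 152 ranked at 66.7% and 95.6%. The vehicle-only regions of the 2 populations were thus at different places of the gene.

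Cbx5 encodes HP1 alpha, the reader that binds methylated H3K9 and compacts chromatin. It lies at chr15:103191546-103239904 on the minus strand. Peaks over its promoter were G9ai-only in CD24low and CD24high and vehicle-only in CD24neg. In CD24low the promoter peak covered chr15:103239869-103240058 in G9ai replicate 2 and chr15:103239860-103240054 in G9ai replicate 3. Scores of 72 and 84 ranked at 29.0% and 73.4%, and both CD24low vehicle libraries listed 0. In CD24high it covered chr15:103239831-103240054 in G9ai replicate 2 and chr15:103239827-103240039 in G9ai replicate 3. Scores of 97 and 128 ranked at 61.9% and 83.2%, and the vehicle library listed 0. In CD24neg both G9ai libraries listed 0, and vehicle replicate 3 listed a peak at chr15:103239847-103240050 with a score of 105, ranked at 62.2%. The same library listed a second peak at chr15:103215011-103215108, 292 bp after an internal start site at position 103215352, with a score of 177 that ranked at 93.5%. The window of Hnrnpa1, a gene for an RNA-binding protein, also covers the promoter site: its span starts 39 bp beyond the end of the Cbx5 span and runs on the other strand. The listed start site of Hnrnpa1 is at position 103240397, and its promoter window begins at position 103240147, beyond the ends of these peaks. The promoter peaks still overlap the beginning of the Hnrnpa1 span, so position alone cannot assign them to 1 gene of this pair.

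Atf7ip encodes a cofactor that stabilises the H3K9 methyltransferase Setdb1. It lies at chr6:136518789-136610850 on the plus strand and held 11 peaks, listed in 8 of the 10 libraries. In CD24neg, G9ai replicates 2 and 3 listed a peak at chr6:136551047-136551186 and chr6:136551111-136551239. Scores of 62 and 104 ranked at 29.3% and 67.8%. CD24neg vehicle replicate 3 listed chr6:136519050-136519203, 276 bp after the start site, and chr6:136543278-136543475, with scores of 63 and 95 that ranked at 19.2% and 54.6%. The 2 arms of CD24neg thus had peaks in different parts of the gene. In CD24low, G9ai replicates 2 and 3 listed chr6:136553812-136554030 and chr6:136553810-136554028. Scores of 127 and 135 ranked at 77.0% and 96.4%, so close scores took different ranks in the 2 lists, and both CD24low vehicle libraries listed 0 peaks. In CD24high, G9ai replicates 2 and 3 listed chr6:136541445-136541580 and chr6:136541451-136541598, with scores of 151 and 114 that ranked at 90.55% and 76.0%. CD24high vehicle replicate 3 listed 3 peaks, at chr6:136532560-136532703, chr6:136543296-136543426 and chr6:136555659-136555807, with scores of 87, 196 and 141 that ranked at 39.1%, 90.6% and 74.25%. The second of them overlapped the CD24neg vehicle peak, so 1 place in Atf7ip was vehicle-only in both of those populations.

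Dnmt1 encodes the maintenance DNA methyltransferase. It lies at chr9:20907206-20959888 on the minus strand. In CD24low both G9ai libraries listed 0 peaks, and the vehicle libraries each listed 1. The vehicle peak covered chr9:20952573-20952719 in replicate 2 and chr9:20952541-20952653 in replicate 3, over the start site at position 20952623 shown above. Its scores of 70 and 58 ranked at 54.2% and 24.8%. In CD24high the arms were the other way round. G9ai replicates 2 and 3 each listed 1 peak, at chr9:20927881-20928056 and chr9:20927901-20928119, and the vehicle library listed 0. Scores of 53 and 87 ranked at 8.29% and 53.3%, and this peak lay inside the gene, far from any listed start site. No CD24neg library listed a peak.

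Dnmt3a encodes a de novo DNA methyltransferase. It lies at chr12:3801559-3914443 on the plus strand. The same place inside the gene was G9ai-only in CD24neg and in CD24low. In CD24neg the peak covered chr12:3866677-3866971 in G9ai replicate 2 and chr12:3866687-3866967 in G9ai replicate 3, with scores of 63 and 111 that ranked at 33.3% and 73.3%. In CD24low it covered chr12:3866706-3866959 in G9ai replicate 2 and chr12:3866753-3866997 in G9ai replicate 3. Scores of 107 and 53 ranked at 63.55% and 23.0%, and the vehicle libraries of both populations listed 0. The higher rank was thus in replicate 3 in CD24neg and in replicate 2 in CD24low. In CD24high both G9ai libraries listed 0, and the vehicle library listed chr12:3825899-3826006 with a score of 77, ranked at 30.6%. That peak lay at another place, nearer to the 5′ end.

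Uhrf1 encodes the protein that guides Dnmt1 to newly copied DNA. It lies at chr17:56303337-56323486 on the plus strand. CD24neg G9ai replicates 2 and 3 listed chr17:56303161-56303366 and chr17:56303192-56303366, and CD24neg vehicle replicate 3 listed 0. Both peaks covered the start site at position 56303337 and ended 29 bp after it. Scores of 77 and 172 ranked at 51.4% and 94.8%, so the peak was in the upper 50% of both lists. The other 7 libraries listed 0. Uhrf1 and Wiz had the same pattern over the 10 libraries, with the G9ai-only region at the 5′ end of the gene in both.

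A region reached a promoter in 4 of the 9 genes with a promoter in the table, against 10.6% of the 17492 protein-coding genes in it. G9ai-only regions in CD24neg reached the promoters of Uhrf1 and Wiz, against 1.77% of genes. In CD24low the Cbx5 promoter was G9ai-only, against 2.73% of genes, and the Dnmt1 promoter was vehicle-only, against 1.69%. In CD24high the Cbx5 promoter was G9ai-only, against 1.35% of genes, and 0 of the 9 had a vehicle-only promoter, against 3.36%. In CD24neg the Cbx5 promoter was vehicle-only, against 2.34% of genes. Cbx5 was thus the 1 gene of the 9 whose promoter was called in all 3 populations, as were the promoters of 0.257% of genes. The arms in which it was called, G9ai in CD24low and CD24high and vehicle in CD24neg, were shared with 4 other genes, Bcl3, Rps26, Shc4 and Sox13.

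**Figure D3:**
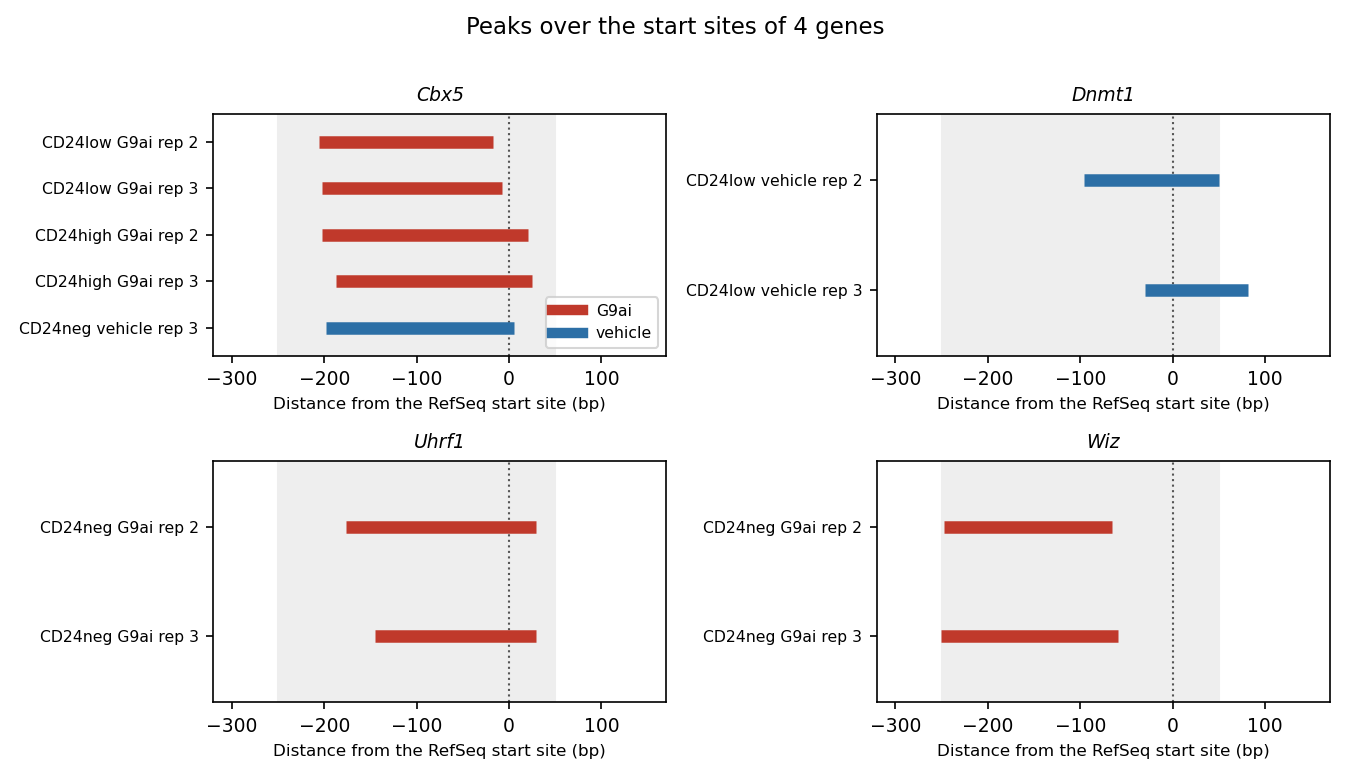
Extent of each listed peak around the RefSeq start site of 4 genes, in bp along the strand of the gene, with 1 bar per library, red for G9ai and blue for vehicle. Grey marks the 300 bases printed as sequence. The 5 Cbx5 peaks nearly coincide, beginning at -206 to -187 bp and ending at -17 to 25 bp, the Uhrf1 and Dnmt1 peaks cover the start site, and the Wiz peaks end at -66 and -59 bp.

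Of the 4 promoters, 3 held more CG dinucleotides, the target of Dnmt1 and Dnmt3a, than the upper quartile of all promoters. Dnmt1 held 33 of them in 300 bases, Cbx5 29 and Wiz 22, against a median of 7 over all promoters in the table, with quartiles of 3 and 20. Uhrf1 held 12, which is between the quartiles. G and C content was 69.7% in Dnmt1 and 67.3% in Wiz, above the upper quartile of 61.7%, and 60.3% in Cbx5 and 58.3% in Uhrf1, between that and the median of 52.7%. The CD24high G9ai peaks covered 209 bases of the Cbx5 promoter in both libraries, the CD24low G9ai peaks 186 and the CD24neg vehicle peak 204. The Wiz peaks covered 182 bases, the Uhrf1 peaks 175 and the Dnmt1 peaks 80. The place was therefore nearly the same in the 3 populations at Cbx5, whichever arm listed it.

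Short motifs were searched on both strands of these windows. The GC box GGGCGG, bound by SP and KLF factors, was in all 4 windows, with 3 matches in Cbx5, 2 in Wiz, 2 in Dnmt1 and 1 in Uhrf1, and 35.7% of the 32851 promoters held it. The NF-Y box CCAAT was also in all 4, with 3 matches in Dnmt1 and in Uhrf1 and 1 in Cbx5 and in Wiz, and 37.4% of promoters held it. The NRF1 core TGCGCA matched 3 times in Cbx5 and in none of the other 3, against 7.76% of promoters. The E2F motif TTCCCGC matched once in Uhrf1, under the peak, against 4.6% of promoters. The YY1 motif ATGGCGG matched 2 times in Wiz, both under the peak, and once in Cbx5, also under the peaks, against 4.05% of promoters. Matches of the GC box, the YY1 motif and the E2F motif can overlap one another by up to 4 letters. The ETS motif CCGGAA, held by 14.9% of promoters, matched in none of the 4. In Wiz the 2 GC box matches lay outside the peak shared by both libraries. In Dnmt1 no match of any of these motifs lay under the shared peak. A match describes the letters only.

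By population, the vehicle side of CD24low held the most of the 10 genes relative to its short list. In CD24low, 3 genes (Dnmt3a, Atf7ip and Cbx5) held a G9ai-only region, against 15.9% of all genes, and 4 genes (Ehmt2, Kdm3b, Cdyl and Dnmt1) held a vehicle-only region, against 7.43%. In CD24neg, 4 genes (Dnmt3a, Uhrf1, Atf7ip and Wiz) held a G9ai-only region, against 10.6%, and 4 genes (Ehmt1, Cdyl, Atf7ip and Cbx5) a vehicle-only region, against 18.8%. In CD24high, 3 genes (Dnmt1, Atf7ip and Cbx5) held a G9ai-only region, against 8% of all genes, and 2 genes (Dnmt3a and Atf7ip) a vehicle-only region, against 24.9%. The vehicle count in CD24high was close to that of all genes, and the median number of regions per gene was 0 in all 6 sets, for the 10 genes as for all genes.

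Because the 10 genes are long, regions were also counted per 100 kb of gene window. CD24low G9ai gave 0.374 for the 10 genes and 0.444 for all genes, and CD24low vehicle gave 0.747 and 0.165. The second is a ratio of 4.52 and rests on 6 regions in 4 genes. Over 48 other genes of H3K9 and DNA methylation, described below, CD24low vehicle gave 0.199, close to all genes. CD24neg G9ai gave 0.498 for the 10 genes and 0.259 for all genes, and CD24neg vehicle 0.997 and 0.551. CD24high G9ai gave 0.374 and 0.187, and CD24high vehicle 0.498 and 0.807. The density in the 10 genes was therefore below that of all genes in CD24low G9ai and CD24high vehicle, at ratios of 0.841 and 0.617, and above it in the other 4 sets. The 10 genes were chosen with earlier results of these data known, so no test of these ratios is given.

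**Figure D4:**
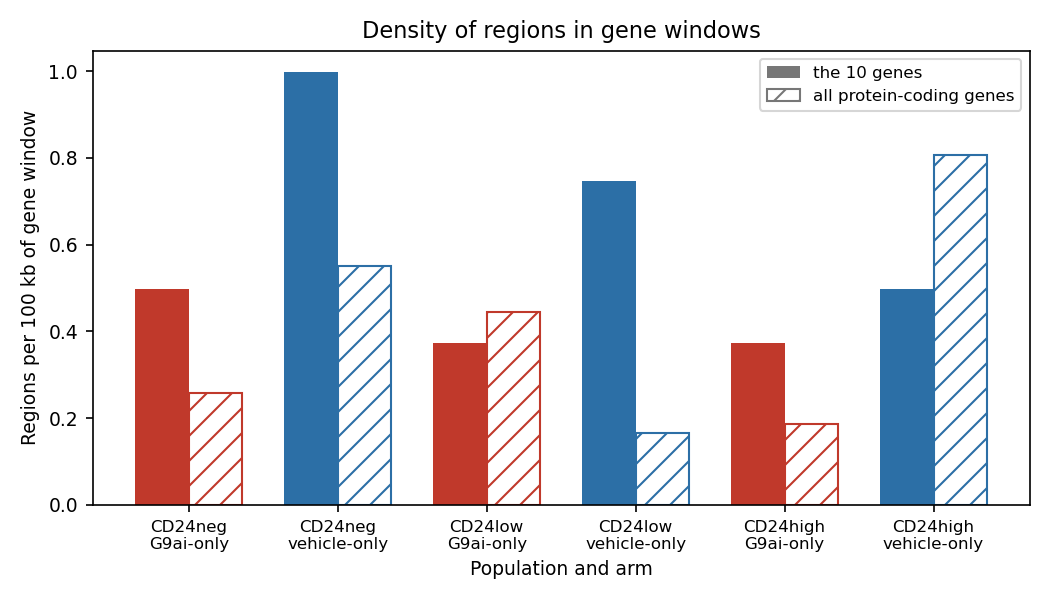
Regions per 100 kb of gene window (bars from 0) for the 10 genes (filled) and for all protein-coding genes (hatched), in each population and arm, with red for G9ai and blue for vehicle. The widest gap is in CD24low vehicle, 0.747 against 0.165, and the order is turned round in CD24low G9ai and CD24high vehicle.

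Of the 44 peaks, 29 ranked in the upper 50% of their list and 8 in the top 10%. The highest rank was that of the peak beside Kdm3b, and the lowest was that of the promoter-near peak of Ehmt2, both in CD24low vehicle replicate 2. The median rank of the peaks of the 10 genes was lowest in CD24neg G9ai replicate 2, at 31.3% over 4 peaks, against 70.5% over the same 4 genes in replicate 3. Lists of 1 group share nearly all their regions, so the same places in both are no separate check. The ranks of those places differed widely between the 2 replicates. In the other libraries the median lay between 56.7% and 76.0%. With the higher-scoring 50% of each list alone, the regions of Dnmt1 and Dnmt3a in every population, of Wiz, of Cbx5 in CD24low and of Atf7ip in CD24neg G9ai were no longer called, while Ehmt2, Kdm3b, Uhrf1, Cbx5 in CD24neg and CD24high, and Ehmt1 kept at least 1. Peak widths ran from 73 to 295 bp with a median of 149 bp, and the medians of whole lists ran from 129 to 183 bp.

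**Figure D5:**
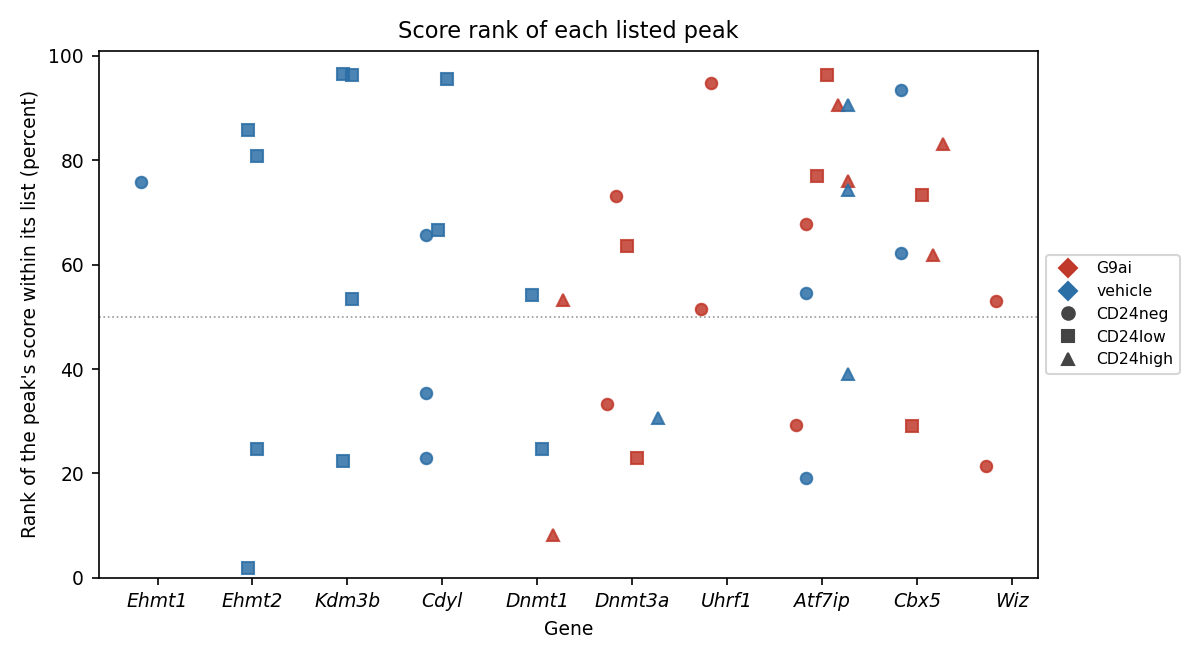
Rank of the score of each of the 44 peaks within its own list (percent, 100 is the highest score), by gene, with red for G9ai and blue for vehicle, and circles, squares and triangles for CD24neg, CD24low and CD24high. The dotted line marks 50%, above which 29 of the 44 peaks lie, and several genes have 1 replicate above it and 1 below it.

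Merged over populations, the 28 regions came to 24 places, of which 21 were called in 1 population, 2 in 2 populations and 1 in all 3. Over the genome, 85.6% of 32870 such places were called in 1 population, 13.3% in 2 and 1.14% in 3. The place called in all 3 was the Cbx5 promoter, whose combination of arms was found at 34 places, or 0.103%. The Dnmt3a place was G9ai-only in CD24neg and CD24low, a combination found at 315 places, or 0.958%. The shared Atf7ip place was vehicle-only in CD24neg and CD24high, found at 1125 places, or 3.42%. Genes with a listed start site held 22 of the 24 places. Of these 22, 15 lay inside the span and over 1000 bp from any listed start site, and 4 reached a promoter window. Places outside promoter windows were likewise the larger part over all regions. The 2 sets differ, since the 22 places lie in gene windows and all regions include those outside any gene window. Over all regions, the share reaching a promoter window was 7.91% in CD24neg G9ai and 4.74% in CD24neg vehicle, 6.61% in CD24low G9ai and 12.0% in CD24low vehicle, and 9.09% in CD24high G9ai and 4.71% in CD24high vehicle.

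Peak names carry a library number that was the same for all 3 populations of G9ai replicate 2, of G9ai replicate 3 and of vehicle replicate 3. Whether it marks a mouse is not stated in the labels or files. Calls in different populations may therefore share animals and are not independent of each other.

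Genes with listed peaks in the same libraries as Ehmt2 and in no others numbered 294, and Kdm3b was among them. By the mean rank of the best peak in the 2 CD24low vehicle libraries, the first 5 were Sde2 at 99.98%, Cox4i1 and Emc8 at 99.8% each, Erlin2 at 99.7% and Stard7 at 98.005%. Ehmt2 itself had 83.3% and came 35th by this measure, so its own peaks were not among the strongest of that pattern. Cox4i1 and Emc8 had the same ranks in both libraries. The pattern of Ehmt1, a peak in CD24neg vehicle alone, was shared by 946 genes, and that of Uhrf1 and Wiz by 408. Rarer patterns were those of Dnmt1, with 31 genes, and of Cbx5, with 58. Atf7ip, with peaks in 8 libraries, shared its pattern with 122 genes, Dnmt3a with 148 and Cdyl with 110, each count including the gene itself.

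The edge of the window bore on 1 gene. The first Kdm3b peak lay outside the span and inside the 1000 bp beside it, at 20 and 28 bp in the 2 vehicle libraries, and no other peak of the 10 genes lay wholly outside a span. Beyond the window, the nearest listed peak was 3314 bp from Dnmt3a, at chr12:3917757-3917954 in CD24high vehicle. It was 6188 bp from Atf7ip in CD24high vehicle, 8125 bp from Cbx5 in CD24low vehicle replicate 2 and 8473 bp from Dnmt1 in CD24low G9ai replicate 2. For the other genes the distance ran from 12440 bp for Cdyl to 111233 bp for Ehmt1. After Ehmt1 it was longest for Wiz, at 63118 bp, and Ehmt2, at 38316 bp, so these 3 genes had no other listed peak near them.

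Other genes of H3K9 and DNA methylation were taken from a list of 48, all of which matched a protein-coding gene. Of these, 26 held a region in at least 1 population: 2 of them on the G9ai side alone, 18 on the vehicle side alone and 6 on both. Over all genes, 43.7% held a region, 8.36% on the G9ai side alone, 18.3% on the vehicle side alone and 17.1% on both. The 2 on the G9ai side were Mbd4, which encodes a glycosylase for mismatches at CG sites, and Morc2a, which encodes an ATPase of heterochromatin silencing. In CD24neg, 2 of the 48 held a G9ai-only region and 15 a vehicle-only one, against 10.6% and 18.8% of all genes. In CD24low, 6 held a G9ai-only region and 6 a vehicle-only one, against 15.9% and 7.43%. In CD24high, 5 held a G9ai-only region and 19 a vehicle-only one, against 8% and 24.9%. As shares of the 48, these counts were 4.17% for G9ai and 31.2% for vehicle in CD24neg, 12.5% for either arm in CD24low, and 10.4% for G9ai and 39.6% for vehicle in CD24high. Per 100 kb of gene window, the 48 genes gave 0.171 for G9ai and 0.796 for vehicle in CD24neg, against 0.259 and 0.551 over all genes. In CD24low they gave 0.54 and 0.199, against 0.444 and 0.165. In CD24high they gave 0.256 and 1.365, against 0.187 and 0.807. The vehicle lists of CD24neg and CD24high were also the longest of all, at 8870 and 12985 peaks from 1 library each.

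The genes of the 48 with the highest mean rank of their best peak in an arm-only region were led by Kdm4a, a demethylase of trimethylated H3K9. It held 2 vehicle-only regions in CD24high, and its best peak ranked at 93.2%. Tet2 and Tet3, which oxidise methylated cytosine, each held 3 vehicle-only regions in CD24high, with best ranks of 91.3% and 88.6%. Dnmt3b, the other de novo DNA methyltransferase, held 1 vehicle-only region in CD24neg, ranked at 85.8%. These 4 genes had regions of 1 arm and 1 population alone, each resting on a single vehicle library. Prdm2, Pphln1 and Zfp462 had vehicle-only regions in CD24neg and CD24high, 5, 3 and 4 in number, again from a single vehicle library in each population. Mecom, Prdm16 and Jmjd1c had regions of both arms, 30, 19 and 12 in number. In CD24low, the population with replicates in both arms, Mecom held 9 G9ai-only and 2 vehicle-only regions. Prdm16 held 4 and 0, and Jmjd1c held 3 and 1. Over the genome CD24low held 7172 G9ai-only and 2500 vehicle-only regions, so more of the first is not particular to these genes. The region counts of these single genes are not set against gene length.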

How the data were processed

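FastQC, Bowtie2, MACS2 and the build mm10 are named in the submitters' processing notes. Versions, settings, read shifting and duplicate removal were not given in the sources used here. The authors deposited 1 list of peaks per library, whose names carry the letters NFR, with a peak score in the fifth column. How the lists were narrowed to peaks of 1 arm is not stated; they hold 3.03% to 13.2% of the highest peak number in their names. Depth is unknown, so no interval is given.

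Repeated lines (47 to 472 per list) were dropped. Peaks of a population were merged at 1 bp of overlap into regions and assigned to genes by RefSeq spans of GRCm38.p6 with 1000 bp on either side. Rank is the place of a score within its list. A planned exact permutation of the arms for Ehmt2 peak counts was not used, since the lists were made against the other arm; no value has a test. The gene assignment was tested on simulated data. Python 3.11.15, pandas 2.3.3, numpy 2.4.6 and scipy 1.17.1 were used. The labels give 3 mice per arm and number the replicates, from which separate mice per replicate are inferred. The 10 genes and the gene lists were chosen with earlier results of these data known. Named genes were the 10 genes, up to 10 of the wider list of 48 by mean rank, and 5 genes most like Ehmt2; Mbd4, Morc2a and the genes sharing the Cbx5 promoter pattern were chosen after their values were seen. Alternatives were other windows, overlaps and merging, repeated lines kept, higher-scoring peaks, equal list lengths and leaving out each replicate.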

Additional observations from a re-analysis of the deposited data

Results flagged for a closer look

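Some genes were on opposite sides in different populations. Dnmt1 had a G9ai-only region in CD24high and a vehicle-only region in CD24low, at different places and resting on peaks in 4 libraries. Dnmt3a had a G9ai-only region in CD24neg and a vehicle-only one in CD24high, with peaks in 3 libraries, and likewise a G9ai-only region in CD24low against a vehicle-only one in CD24high, with peaks in 3 libraries. Cbx5 had a G9ai-only region in CD24low and vehicle-only ones in CD24neg, with peaks in 3 libraries, and a G9ai-only region in CD24high against vehicle-only ones in CD24neg, also with peaks in 3 libraries. At Cbx5 the promoter place was the same in all 3 populations. These differences were not tested, and the vehicle side of CD24neg and CD24high is 1 library each.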

How the results depend on the processing

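Taking 1000 bp around either gene end in place of the whole span left, in G9ai and vehicle, 2 and 2 genes with a region in CD24neg, 1 and 1 in CD24low, and 1 and 0 in CD24high, with as many regions (2 and 2, 1 and 1, 1 and 0), and the Ehmt2 difference became 0, since both its peaks lie further inside. With the higher-scoring 50% of peaks, genes with a G9ai-only region numbered 1 in CD24neg and 1 in CD24low and those with a vehicle-only one 1 in CD24high. Regions then numbered 1 for G9ai and 5 for vehicle in CD24neg, 1 for G9ai and 3 for vehicle in CD24low, and 2 for vehicle in CD24high. With all lists cut to the 2552 highest-scoring peaks, genes numbered 1 for G9ai and 2 for vehicle in CD24neg, 1 for G9ai in CD24low and 1 for vehicle in CD24high, with as many regions (1, 2, 1 and 1). A window of 10000 bp gave 5 G9ai-only regions in CD24low. Of 151 group values over all alternatives, 121 stayed within 1.5 times the value reported. Leaving out in turn each replicate of the groups with 2 libraries kept all 36 group values at the value reported, with the Ehmt2 difference at -2 throughout; gene counts ran from 2 to 4 and region counts from 3 to 8. Lists of a group share nearly all regions, so these values could hardly move, and the lone vehicle libraries of CD24neg and CD24high could not be left out. No paired analysis was possible because the counts of genes and regions come from no test and the arms are separate mice. Limits are the unknown depth, 1 vehicle library in CD24neg and in CD24high, and lists that leave out places open in both arms.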
